A study of Mus musculus with 11 samples.

Results

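The genes of the E2F factors and the retinoblastoma proteins were described in the pancreatic islets of virgin and multiparous mice. They were the rows whose symbol was *E2f1* to *E2f8*, *Rb1* or *Rbl1*, which gave 10 of the 55536 genes in each library. RNA was taken from islets of wild-type C57BL/6J female mice that entered the study at 9 weeks of age. Multipara mice completed 3 consecutive pregnancies and were studied 3 weeks after the last delivery, and their virgin littermates were the controls. S-961, a peptide that blocks the insulin receptor and so raises the demand for insulin, was given into the peritoneum over 3 days, as 2 daily injections of 100 nmol/kg. Among the 11 libraries, virgin islets gave 3 with S-961 and 2 untreated, and multipara islets gave 4 with S-961 and 2 untreated, all by their labels. Their poly(A) RNA came from whole islets, in which β cells lie among α, δ and other cells, so that a larger number of cells of a type and more RNA per cell cannot be told apart. The labels do not say whether a library came from 1 mouse or from pooled mice. For the S-961 sequencing, the paper that reported these data gives 3 virgin and 4 multiparous mice, as many as the libraries. The p-values set each difference against the spread between these libraries.

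E2F factors bind DNA together with a DP partner and set the timing of genes needed for DNA replication and mitosis. In a resting cell, the pocket proteins RB (*Rb1*), p107 (*Rbl1*) and p130 (*Rbl2*) hold E2F factors and keep these genes low, and phosphorylation by cyclin-dependent kinases in G1 releases them. E2F1, E2F2 and E2F3 are called activators because they raise these genes once free of RB. E2F4 and E2F5 act mainly with p107 and p130 as repressors, E2F6 represses without any pocket protein, and the atypical factors E2F7 and E2F8 repress without a DP partner late in S phase and in G2. Adult β cells seldom divide, and the RB and E2F pathway is part of the control of their entry into the cell cycle.

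Several of these genes are themselves known targets of E2F factors, so the letters of an E2F site were searched in their promoters. The windows were RefSeq sequences of GRCm38.p6 that held 250 bases before and 50 bases after a transcription start, with 9 windows for 7 of the 10 genes. The letters searched were TTTCCCGC, TTTGGCGC, TTTCGCGC and TTTGCCGC on both strands, of which no pair can begin at the same base of the same strand. They were found in 4 of the 7 genes, against 704 of all 27025 genes with a window (2.6%), and in 744 of all 32851 windows (2.27%). The 4 stretches are shown here because each holds its E2F letters, in capitals, on either strand. Those of *Rbl1* (chr2:157204535-157204614, minus strand), *E2f3* (chr13:29986064-29986143, minus strand) and *E2f7* (chr10:110745209-110745288, plus strand) lie upstream of the annotated gene. That of *E2f2* (chr4:136172294-136172323, plus strand) covers bases 21 to 50 of the RefSeq transcript, but also lies upstream of the gene as GENCODE annotates it.
Rbl1: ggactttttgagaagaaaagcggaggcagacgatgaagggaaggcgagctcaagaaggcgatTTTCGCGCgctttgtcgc
E2f3: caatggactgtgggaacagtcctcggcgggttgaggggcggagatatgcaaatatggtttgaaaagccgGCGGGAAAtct
E2f2: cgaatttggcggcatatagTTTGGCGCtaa
E2f7: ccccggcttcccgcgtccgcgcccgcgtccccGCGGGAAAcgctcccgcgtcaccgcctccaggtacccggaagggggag

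The letters began 18 bases before the start in *Rbl1*, 11 bases before it in *E2f3* and 198 bases before it in *E2f7*. The letters TTTGAA, the core of the CHR element through which the DREAM complex acts on G2 and M genes, were also searched on both strands. They were found in the *E2f8* window, in the same *E2f3* window as the E2F letters and in the second *E2f2* window, and in 17.9% of all windows. The windows of *E2f1* and *E2f6* held neither set of letters, and the *E2f1* window surrounds a start that lies 466 bases inside the gene as GENCODE annotates it. A match is a description of the sequence and does not show that a factor binds there.

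**Figure D1:**
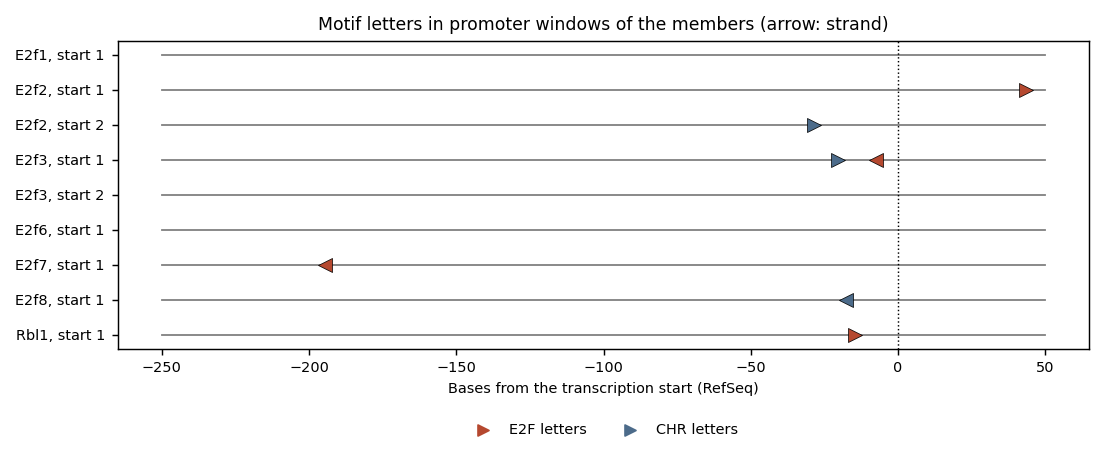
Position of E2F letters (red) and CHR letters (blue) in 9 promoter windows of 7 genes. The x axis gives bases from the RefSeq transcription start, each grey line is 1 window, and the arrow gives the strand. E2F letters lie within 20 bases before the start in *Rbl1* and *E2f3*, farther upstream in *E2f7* and after the start in *E2f2*.

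Before the results, the libraries were checked against their labels. Total counts ran from 22028484 to 32234140 per library. Insulin transcripts (*Ins1* and *Ins2*) took 13.2% to 20.7% of all reads in S-961 libraries and 35.3% to 41.4% in untreated ones. No marker of islet cell types was at 0 in every library. *Lrrc55*, a gene known to rise in islets during pregnancy, was at 24.9 and 22.8 CPM (counts scaled to a common, normalized library total) in multipara untreated. It was at 0.73 and 0.85 CPM in virgin untreated. With S-961, it was at 7.54, 6.82 and 5.34 CPM in the libraries labelled virgin and at 0.60, 0.32, 1.96 and 4.43 CPM in those labelled multipara. *Matn2*, another gene known to rise in pregnancy, was at 51.4 and 49.99 CPM in multipara untreated and at 21.4 and 19.7 CPM in virgin untreated. With S-961, it was instead at 132 to 148 CPM in virgin and at 41.7, 59.2, 27.0 and 115 CPM in multipara replicates 1 to 4. The order of both genes was thus opposite in the S-961 libraries, and groups are therefore named by their labels throughout. The paper reports *Matn2* and *Lrrc55* as raised, and *Cdk2* and *Cdkn2d* as lowered, in multiparous islets with S-961. By the labels here, each of these genes ran the other way. *Cdk2* and *Cdkn2d* were higher in multipara S-961 (log2 fold change 1.41 and 0.91), and neither passed the threshold by edgeR. The paper also reports cell cycle gene sets as lowered in multiparous islets with S-961, and fewer β cells stained for Ki-67 protein in such mice. By the labels here, *Mki67* RNA was at 3.43, 13.9 and 3.04 CPM in virgin S-961. In multipara S-961 it was at 93.9, 65.5, 43.5 and 3.93 CPM. Whether the labels of the S-961 groups are exchanged was not tested. If they were, every parity difference with S-961 would have the opposite direction, and the comparisons of S-961 with no treatment and the interaction would pair other groups. If the labels of only some S-961 libraries were exchanged, group membership, fold sizes and calls would change as well, which was not tested. The library labelled multipara S-961 4 stood apart from the other 3 of its group in many of the genes below. The library multipara untreated 1 was the highest of all 11 for 4 of 4 immune, 4 of 4 lymphocyte and 4 of 5 red cell markers. Results that rest on either library are given with and without it.

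Per kilobase of exon, *E2f4* had the highest level of the 10 genes in every group, with a mean of 14.5 to 20.2 CPM per kb. In the untreated virgin libraries it was followed by *E2f5* at 4.79, *E2f6* at 4.66 and *E2f1* at 4.15 CPM per kb, and the ranges of these 3 overlapped. *Rb1* came next at 2.50 CPM per kb, above *E2f2* at 0.85, *Rbl1* at 0.60 and *E2f3* at 0.40 CPM per kb. *E2f7* and *E2f8* were lowest, at 0.04 and 0.05 CPM per kb, and their ranges overlapped. The order differed in the libraries labelled multipara S-961, where *E2f1* was second at 9.24 CPM per kb with a wide range from 4.92 to 13.8. There, *E2f8* (0.73 CPM per kb) and *E2f7* (0.63 CPM per kb) were still the lowest. The canonical repressors together thus held the largest part of the E2F transcripts in every library.

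**Figure D2:**
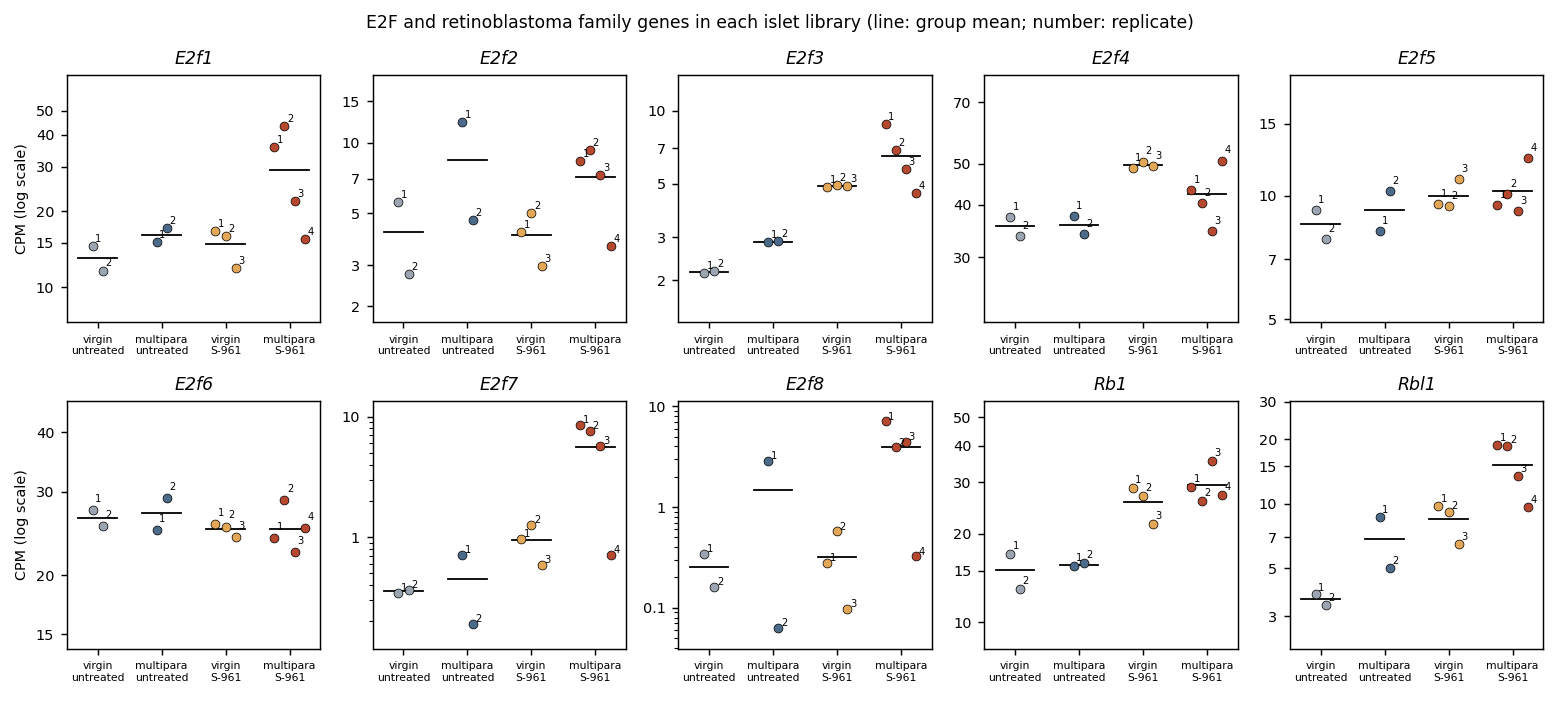
Level of each of the 10 genes in every library, in CPM on a log axis whose range differs between panels. Points are single libraries with their replicate number, and the line is the group mean. In *E2f1*, *E2f2*, *E2f7*, *E2f8* and *Rbl1*, multipara S-961 replicates 1 to 3 lie above all 3 virgin S-961 libraries and replicate 4 lies among them.

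The activators were compared first. *E2f1* (chr2:154559407-154569892), the factor most often tied to both entry into S phase and apoptosis, was at 16.7, 15.9 and 11.9 CPM in the virgin S-961 libraries and at 35.8, 43.4, 21.9 and 15.5 CPM in the multipara S-961 libraries. Untreated, it was at 14.5 and 11.6 CPM in the virgin and at 15.1 and 17.1 CPM in the multipara libraries. Multipara S-961 1, 2 and 3 were thus higher than every other library, and multipara S-961 4 fell among the virgin libraries. The group means were 29.2 ± 12.7 CPM (SD, n = 4) against 14.8 ± 2.58 CPM (SD, n = 3), and the log2 fold change was 0.99 ± 0.33 (SE, edgeR's quasi-likelihood test, adjusted p = 0.369).

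*E2f2* (chr4:136172394-136196057), which shares the activator role, was at 4.14, 5.01 and 2.98 CPM in the virgin S-961 libraries and at 8.32, 9.28, 7.26 and 3.64 CPM in the multipara S-961 libraries. Untreated, it was at 5.59 and 2.74 CPM in virgin and at 12.2 and 4.66 CPM in multipara libraries. The highest value of all was in multipara untreated 1, the library with the high immune and red cell markers, whose part in this value was not tested. *E2f3* (chr13:29906575-29986063), an activator that also has a shorter repressive isoform, was at 4.85, 4.95 and 4.88 CPM in virgin S-961 and at 8.81, 6.87, 5.74 and 4.55 CPM in multipara S-961. It was at 2.14 and 2.18 CPM in virgin untreated and at 2.86 and 2.90 CPM in multipara untreated. *E2f3* was the activator whose S-961 libraries all lay above all untreated libraries, at either parity label. The counts per gene do not separate its isoforms.

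Among the canonical repressors, *E2f4* (chr8:105297663-105305370), the most abundant E2F of resting cells, was at 48.8, 50.6 and 49.4 CPM in virgin S-961 and at 43.4, 40.4, 34.7 and 50.9 CPM in multipara S-961. It was at 37.4 and 33.7 CPM in virgin untreated and at 37.6 and 34.0 CPM in multipara untreated. Multipara S-961 1 to 3, the libraries with the high *E2f1*, were the 3 lowest of the S-961 libraries for *E2f4*, and multipara S-961 4 was the highest. *E2f5* (chr3:14578641-14606309), a p130 partner, had between 7.86 and 12.4 CPM in the 11 libraries. *E2f6* (chr12:16810963-16839742), the E2F of the PRC1.6 repressor complex, had between 22.4 and 29.1 CPM. Neither gene separated the parity labels with S-961.

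The atypical repressors had the widest range. *E2f7* (chr10:110745439-110787384) was at 0.96, 1.27 and 0.58 CPM in virgin S-961 and at 8.49, 7.62, 5.74 and 0.71 CPM in multipara S-961, where the counts behind the values were 313, 262, 223 and 24. It was at 0.34 and 0.36 CPM in virgin untreated and at 0.71 and 0.19 CPM in multipara untreated. Multipara S-961 1 to 3 thus stood far above the other 8 libraries, which lay between 0.19 and 1.27 CPM. *E2f8* (chr7:48866429-48881596) was at 0.28, 0.57 and 0.10 CPM in virgin S-961 and at 7.10, 3.93, 4.45 and 0.33 CPM in multipara S-961. It was at 0.34 and 0.16 CPM in virgin untreated and at 2.90 and 0.06 CPM in multipara untreated, the last from a single count. *E2f8* thus differed from *E2f7* in that multipara untreated 1 was also high, a library that was high for *Mki67*, a marker of dividing cells, too (38.6 against 2.14 CPM in multipara untreated 2).

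Of the pocket proteins, *Rb1* (chr14:73183673-73325822), the main brake on the activators, was at 28.8, 27.0 and 21.6 CPM in virgin S-961 and at 29.0, 25.9, 35.5 and 27.2 CPM in multipara S-961. It was at 17.0 and 13.0 CPM in virgin untreated and at 15.5 and 15.9 CPM in multipara untreated. All S-961 libraries therefore lay above all untreated ones, with overlap between the parity labels. *Rbl1* (chr2:157145893-157204534), which encodes p107 and is itself an E2F target, was at 9.80, 9.14 and 6.53 CPM in virgin S-961 and at 18.9, 18.6, 13.5 and 9.69 CPM in multipara S-961. It was at 3.79 and 3.39 CPM in virgin untreated and at 8.71 and 5.04 CPM in multipara untreated. As for *E2f1*, multipara S-961 1 to 3 were higher than every other library, and multipara S-961 4 fell among the virgin S-961 libraries.

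The comparison of parity under S-961 asked whether levels differ between the parity labels in islets under a higher demand for insulin. A difference in the response itself is the interaction, which is given below. With all 7 libraries, *E2f8* was 12.5-fold, *E2f7* 6.10-fold, *E2f1* 1.99-fold, *Rbl1* 1.81-fold and *E2f2* 1.79-fold higher in the libraries labelled multipara, but 0 of 10 members passed an adjusted p of 0.05 by edgeR. The share of all 16784 tested genes that passed was 0%. These 5 members had an unadjusted p under 0.05, against 9.71% of all genes. DESeq2 called 2.2% of its genes and 2 members, *E2f7* (adjusted p = 0.00545) and *E2f8* (adjusted p = 0.0015). By edgeR, the log2 fold change was 3.65 ± 0.95 for *E2f8* (SE, adjusted p = 0.315), 2.61 ± 0.72 for *E2f7* (adjusted p = 0.315) and 0.86 ± 0.26 for *Rbl1* (adjusted p = 0.336). No member had groups that did not overlap, against 5.23% of genes in the higher and 3.64% in the lower direction.

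A single library decided the calls by edgeR, and DESeq2 was not run without it. That library, multipara S-961 4, was singled out after its values in these genes were seen. Calls and non-overlap without it, here and below, are therefore a description, and the shares of all genes beside them give no test. Without multipara S-961 4, edgeR called 3.16% of 16590 genes and 4 of the 10 members, all higher in the libraries labelled multipara. These were *E2f7* (log2 fold change 2.98 ± 0.32 SE, adjusted p = 0.00445), *E2f8* (4.03 ± 0.54, adjusted p = 0.00871), *Rbl1* (1.02 ± 0.20, adjusted p = 0.0358) and *E2f1* (1.21 ± 0.25, adjusted p = 0.0423). *E2f2* stood at 1.06 ± 0.23 (adjusted p = 0.0513) and *E2f3* at 0.56 ± 0.21 (adjusted p = 0.214), while *E2f4* stood at -0.31 ± 0.12 (adjusted p = 0.254). Over the 14 alternatives that were run, adjusted p ran from 0.00445 to 0.785 for *E2f7*, from 0.0015 to 0.785 for *E2f8*, from 0.0358 to 0.785 for *Rbl1* and from 0.0335 to 0.788 for *E2f1*. Of the members, 6, namely the 3 activators, both atypical repressors and *Rbl1*, then lay above the virgin S-961 libraries without overlap, against 13.7% of genes, and 1 member, *E2f4*, lay below them, against 10.9% of genes. In the same 3 libraries, 7 of 7 acinar markers and 4 of 4 α cell markers were higher than in virgin S-961 and in multipara S-961 4. Summed acinar markers ran from 1440 to 5725 CPM in virgin and from 3719 to 10221 CPM in multipara S-961 libraries, and the 1 PP cell marker and 3 of 5 duct and 3 of 5 stromal markers were also higher in these 3. Summed stromal markers were at 62.6 to 67.2 CPM in virgin S-961 and at 123 to 274 CPM in all 4 multipara S-961 libraries. The part of these markers in the difference was not tested.

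**Figure D3:**
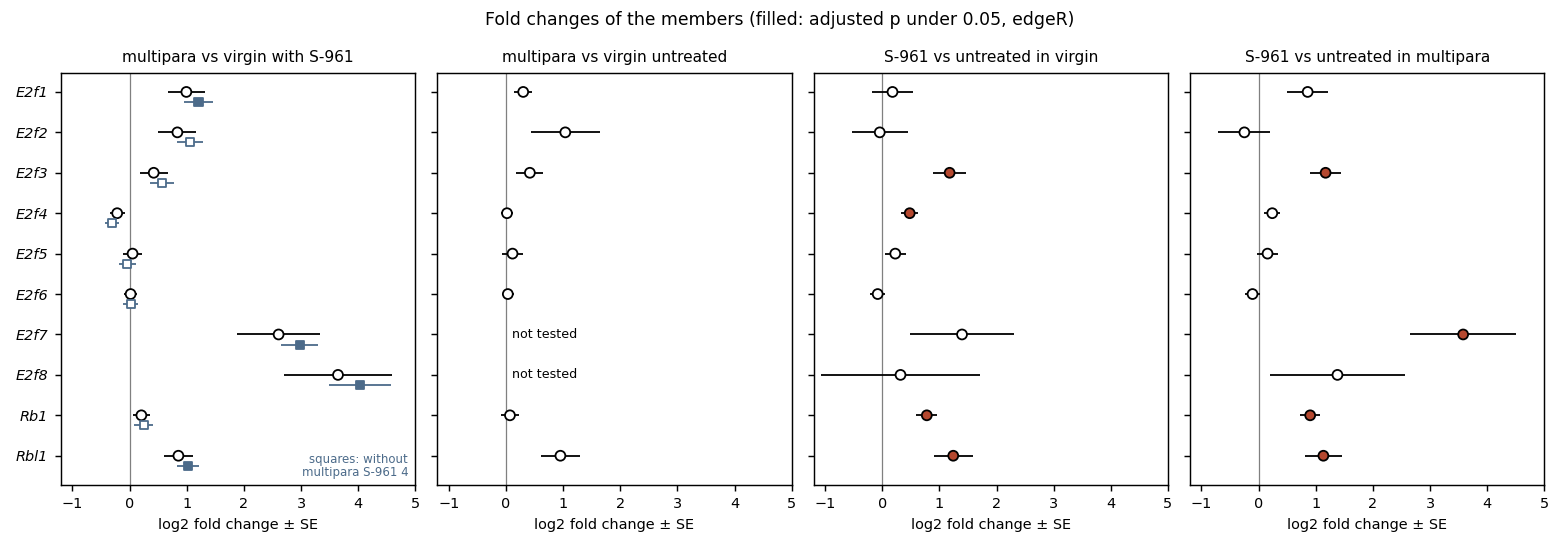
Log2 fold change with its standard error (edgeR) of each gene in the 4 comparisons, on a common axis. Filled symbols have an adjusted p under 0.05, and blue squares in the first panel leave out multipara S-961 4. *E2f7* and *E2f8* have the largest values in the first panel, where no circle and 4 squares are filled, and *E2f3*, *Rb1* and *Rbl1* are filled in both panels of S-961 against untreated.

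The balance of activator and repressor transcripts followed the same libraries. The ratio of *E2f1* to *E2f4* in CPM was 0.34, 0.31 and 0.24 in virgin S-961 and 0.83, 1.07, 0.63 and 0.30 in multipara S-961, beside 0.39 and 0.34 in virgin untreated and 0.40 and 0.50 in multipara untreated. Activators made up 19.0%, 18.5% and 14.7% of the summed E2F level per kilobase in virgin S-961 and 33.2%, 37.0%, 27.8% and 16.8% in multipara S-961. In untreated islets they made up 19.5% and 17.0% in virgin and 23.8% and 21.8% in multipara libraries. The activator share was thus highest in multipara S-961 1 to 3, and multipara S-961 4 lay within the range of the virgin libraries. Atypical repressors were higher in the same 3 libraries and made up 5.09%, 3.43% and 4.25% of the pool, against 0.23% to 0.65% in virgin S-961 and 0.36% in multipara S-961 4. In untreated libraries they made up 0.32% and 0.26% in virgin and 1.87% and 0.10% in multipara. The ratio of *Rbl1* to *Rb1* was 0.65, 0.72 and 0.38 in multipara S-961 1 to 3, and 0.30 to 0.36 in the other S-961 libraries. It was 0.22 and 0.26 in virgin untreated and 0.56 and 0.32 in multipara untreated, so that multipara untreated 1 lay above multipara S-961 3. No test was made of these ratios and shares.

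**Figure D4:**
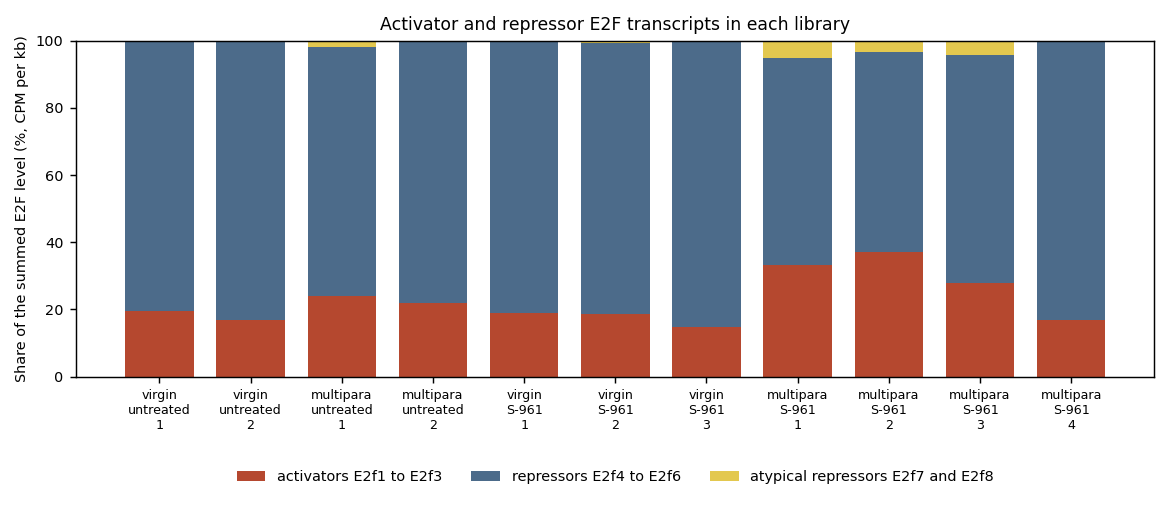
Share of activators (*E2f1* to *E2f3*), canonical repressors (*E2f4* to *E2f6*) and atypical repressors (*E2f7* and *E2f8*) in the summed level of the 8 E2F genes, in CPM per kilobase of exon, for each library. Bars start at 0 and add up to 100%. Multipara S-961 1 to 3 have activator shares of 27.8% to 37.0%, above the 14.7% to 23.8% of the other libraries.

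Genes of the pathway around the members were read in the same comparison. All 26 targets of S phase had a log2 fold change above 0, with a median of 1.85 beside a median of 0.00 for all genes, and 0 passed the test with all 7 libraries. Examples were *Uhrf1*, which helps to copy DNA methylation (3.41 ± 0.78 SE, adjusted p = 0.315), and *Cdc6*, which loads the replicative helicase (3.17 ± 1.01, adjusted p = 0.364). *Chek1*, a kinase of the replication checkpoint, stood at 0.00 ± 0.37. All 12 G2 and M targets of DREAM had values above 0, with a median of 3.67, among them *Bub1* of the spindle checkpoint (4.43 ± 0.95, adjusted p = 0.315) and *Top2a*, a topoisomerase (4.17 ± 1.01, adjusted p = 0.315). *Aurka*, a mitotic kinase, had the smallest value of that list at 2.23 ± 0.60. Without multipara S-961 4, 22 of the 26 and 12 of the 12 passed, all higher, with medians of 2.16 and 4.05. The paper reports cell cycle gene sets as lowered in multiparous islets with S-961, the reverse of the direction by label here.

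The partners and regulators of the members had smaller values. The DP partners *Tfdp1* and *Tfdp2* and the pocket protein *Rbl2* stood at 0.16, 0.23 and 0.05 on the log2 scale. Of the 6 subunits of MuvB and DREAM, 4 were above 0, led by *Lin9*, a core subunit of MuvB (1.51 ± 0.40, adjusted p = 0.315), and *Mybl2*, the Myb factor that joins MuvB in S phase (0.97 ± 0.36, adjusted p = 0.434), while *Lin37* stood at -0.07. Of 8 G1 cyclins and RB kinases, 6 were above 0, with *Cdk2* at 1.41 ± 0.37 (adjusted p = 0.315), *Ccne2*, a cyclin that pairs with it, at 0.79, and *Cdk4*, the kinase that pairs with D cyclins, at 0.00. Of 7 inhibitors of these kinases, 4 were above 0, with *Cdkn2c* (p18) at 0.94, *Cdkn2d* (p19) at 0.91 and *Cdkn1b* (p27) at -0.04. Without multipara S-961 4, 1 gene passed in each of the last 3 lists, namely *Lin9* (adjusted p = 0.00888), *Cdk2* (adjusted p = 0.00604) and *Cdkn2d* (adjusted p = 0.0327), all higher.

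The lists tied to single members came next. The 6 measured apoptosis targets of E2F1 were all above 0 with a median of 0.40. *Pmaip1* (Noxa) stood at 0.60 and *Apaf1*, the apoptosome scaffold, at 0.07. The 12 PRC1.6 partners of E2F6 had a median of 0.02 with 6 above and 6 below 0, and ranged from -0.38 (*Max*) to 0.19 (*L3mbtl2*), with *Rybp* at -0.01. Of 9 germline genes that E2F6 and PRC1.6 are known to silence, 1 was measured well enough to be tested, *Stag3*, a meiotic cohesin subunit (2.80 ± 1.08, adjusted p = 0.453), at 0.03 to 0.65 CPM in multipara S-961. Neither of these E2F6 lists had a gene that passed, with or without multipara S-961 4.

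**Figure D5:**
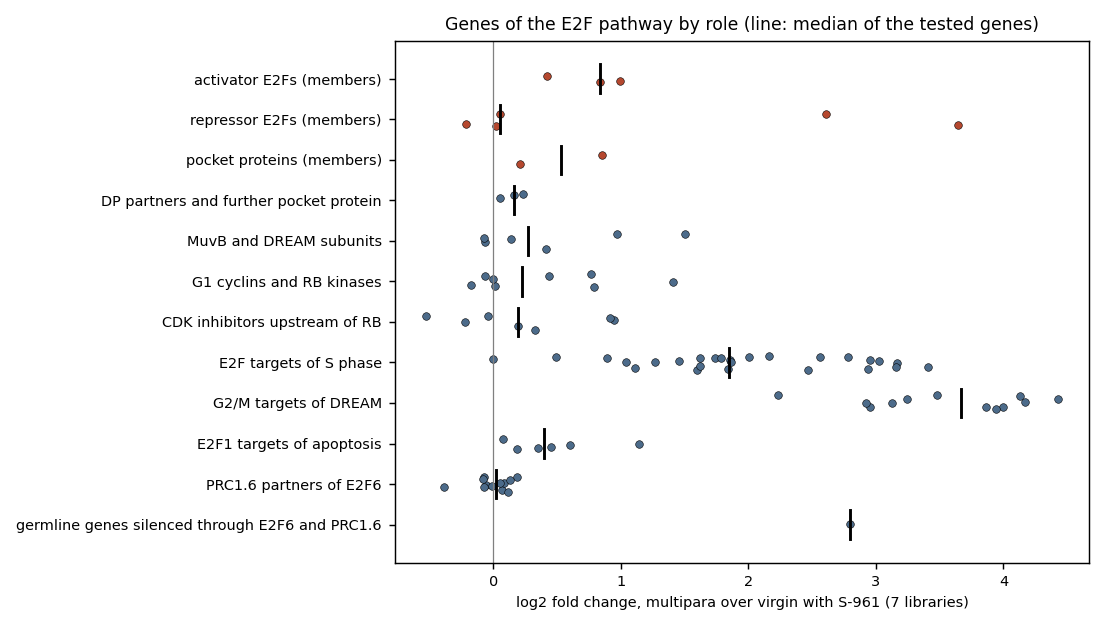
Log2 fold change of multipara over virgin with S-961 for the tested genes of each list, 1 point per gene with vertical scatter for legibility, members in red and other lists in blue, and the median as a black line. G2 and M targets lie highest (median 3.67), S phase targets next among lists of more than 1 tested gene (median 1.85), and PRC1.6 partners lie around 0 (median 0.02). With all 7 libraries, 0 of the genes shown passed an adjusted p of 0.05.

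Without S-961, the members showed no called difference between the parity labels. By edgeR, 0 of the 8 members tested and 0% of 15812 genes passed, and *E2f7* and *E2f8* had too few counts to be tested. *Rbl1* was 1.94-fold higher in multipara (log2 fold change 0.95 ± 0.34 SE, adjusted p = 0.719) and was the 1 member with an unadjusted p under 0.05, against 5.62% of genes, and DESeq2 called 0 members. *E2f1*, *E2f3* and *Rbl1* were higher without overlap, against 17.3% of genes. With multipara untreated 1 as the only multipara library, 10.3% of 16851 genes and 3 members were called, *E2f8* (3.50 ± 0.51, adjusted p = 0.00436), *Rbl1* (1.29 ± 0.22, adjusted p = 0.00924) and *E2f2* (1.56 ± 0.35, adjusted p = 0.0326). Here the spread of the lone library was assumed to be that of the virgin pair. Over the alternatives, adjusted p ran from 0.00436 to 1 for *E2f8*, from 0.00924 to 1 for *Rbl1* and from 0.0326 to 1 for *E2f2*. With multipara untreated 2 in its place, *Rbl1* stood at 0.47 ± 0.26 and *E2f2* at 0.14 ± 0.38, and 0 members were called. The sum of 4 immune markers was 642 CPM in multipara untreated 1 and 24.1 to 77.5 CPM in the other 10 libraries, and its part in these values was not tested. All 24 tested S phase targets and 11 of 11 tested G2 and M targets were above 0, with medians of 0.71 and 1.87 beside 0.02 for all genes, and 0 passed. These directions rested on multipara untreated 1: without it, 7 of 24 S phase targets and 0 of 11 G2 and M targets were above 0, with medians of -0.11 and -1.13 beside -0.01 for all genes, and 0 passed.

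In the comparisons of S-961 with no treatment, *Rb1*, *Rbl1* and *E2f3* were called higher at both parity labels, and the share of members called was near that of all genes. In virgin islets, 4 of 10 members were called, all higher with S-961, while 36.5% of 17996 genes were called. *Rbl1* rose 2.37-fold (log2 fold change 1.24 ± 0.34 SE, adjusted p = 0.0153), *E2f3* 2.26-fold (1.18 ± 0.28, adjusted p = 0.00854), *Rb1* 1.72-fold (0.78 ± 0.18, adjusted p = 0.00776) and *E2f4* 1.40-fold (0.48 ± 0.15, adjusted p = 0.0292). *E2f1* stood at 0.18 ± 0.36, *E2f2* at -0.04 ± 0.49 and *E2f8* at 0.32 ± 1.39, with adjusted p of 0.731, 0.957 and 0.879. In all, 6 members were higher without overlap, *E2f5* and *E2f7* beside these 4, against 32.8% of genes. These calls rested on both untreated virgin libraries: with either left out, fewer of the members and fewer of all genes were called. Without virgin untreated 1, *Rbl1* stood at 1.33, *E2f3* at 1.17, *Rb1* at 0.99 and *E2f4* at 0.56. Without virgin untreated 2, they stood at 1.16, 1.19, 0.60 and 0.41. *E2f4* also lost its call when any 1 of the 3 virgin S-961 libraries was left out (adjusted p of 0.0539 to 0.0738, and 0.000798 to 0.207 over all alternatives).

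In multipara islets, 4 of 10 members were called, all higher with S-961, and 37.6% of 17996 genes were called. *E2f7* rose 11.9-fold (log2 fold change 3.58 ± 0.93 SE, adjusted p = 0.0124), *E2f3* 2.25-fold (1.17 ± 0.27, adjusted p = 0.00734), *Rbl1* 2.19-fold (1.13 ± 0.32, adjusted p = 0.0179) and *Rb1* 1.87-fold (0.90 ± 0.18, adjusted p = 0.00319). *E2f1* stood at 0.86 ± 0.35 (adjusted p = 0.0781) and reached 1.07 ± 0.27 (adjusted p = 0.0151) without multipara S-961 4, when *E2f7* stood at 3.94 ± 0.55 (adjusted p = 0.00102). Of the members, 3, namely *E2f3*, *Rb1* and *Rbl1*, were higher without overlap, against 24.5% of genes. Without multipara untreated 1, *E2f3* lost its call and *E2f7* stood at 4.87 ± 1.43, from 3 counts in the remaining untreated library. Without multipara untreated 2, *E2f7* (2.98 ± 1.16) and *Rbl1* (0.81 ± 0.38) lost theirs. With either untreated library left out, calls were fewer among all genes too. Over the alternatives, adjusted p ran from 8.67e-05 to 0.0887 for *E2f7* and from 0.00382 to 0.283 for *E2f1*.

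Among the partners, *Tfdp1*, the DP1 gene, was higher with S-961 in virgin (1.07 ± 0.21, adjusted p = 0.00321) and in multipara islets (1.25 ± 0.21, adjusted p = 0.00128). *Ccne2* (1.42 ± 0.40, adjusted p = 0.0184, and 1.92 ± 0.40, adjusted p = 0.00406) and *Chek1* (3.17 ± 0.59, adjusted p = 0.0022, and 2.71 ± 0.56, adjusted p = 0.00403) were also higher at both labels. Of the 26 S phase targets, 1 was called in virgin and 2 in multipara islets, with medians of 0.155 and 1.16. Of the 12 G2 and M targets, 0 were called in either, with medians of -0.17 in virgin and 1.98 in multipara islets. Among all genes, 36.5% were called in virgin and 37.6% in multipara islets. *Tfdp2*, the other DP partner gene, stood at -0.11 ± 0.21 in virgin and at 0.17 ± 0.20 in multipara islets and was not called. The other pocket protein gene, *Rbl2*, stood at 0.31 ± 0.17 in virgin and at 0.39 ± 0.16 in multipara islets and was not called (adjusted p of 0.166 and 0.0787). Without multipara untreated 1, the median of the G2 and M list in multipara islets was 4.57 and 1 of its genes was called. Of 7 acinar markers, 7 were higher in every S-961 library than in every untreated library, with sums of 1440 to 10221 CPM against 42.0 to 108 CPM. Their part in the S-961 differences was not tested.

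The 2 S-961 comparisons also depend on scaling, since insulin transcripts took a smaller share of the counts with S-961. With totals in place of TMM factors, the median gene moved from -0.04 to 0.43 in virgin and from 0.03 to 0.61 in multipara islets on the log2 scale. Relative to the median gene, *E2f3*, *Rb1*, *Rbl1* and *E2f7* stayed above and *E2f6* stayed below under either scaling. The value of *E2f6* itself went from -0.08 to 0.39 in virgin and from -0.11 to 0.47 in multipara islets.

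The difference between the responses to S-961 at the parity labels was tested directly as an interaction. By edgeR, 0 of the 10 members and 0% of 17996 genes were called. No member had an unadjusted p under 0.05, against 6.55% of genes, and DESeq2 called 81 genes and 0 members. *E2f7* had the largest value, with a response 4.54-fold larger in multipara (2.18 ± 1.24 SE, adjusted p = 0.791), followed by *E2f8* (1.06 ± 1.81, adjusted p = 0.95) and *E2f1* (0.68 ± 0.50, adjusted p = 0.853). *E2f4* had the lowest at -0.24 ± 0.21 (adjusted p = 0.876). Without multipara S-961 4, *E2f7* stood at 2.54 ± 0.72 (adjusted p = 0.201) and *E2f1* at 0.89 ± 0.38 (adjusted p = 0.424). These 2 of the 10 members then had an unadjusted p under 0.05, against 1990 of 17887 genes. Without multipara untreated 1, *E2f8* stood at 5.56 ± 2.31 and *E2f7* at 3.47 ± 1.64. In that fit *E2f8* had 1 count and *E2f7* 3 counts in the remaining library. No member was called in either case.

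Patterns over the 11 libraries were described by Pearson's r of log2 CPM between genes, without a test, since the libraries share their groups. *E2f1* followed *E2f7* (r = 0.86), *Rbl1* (r = 0.82) and *E2f8* (r = 0.76) more closely than *E2f2* (r = 0.65), while its r with *E2f4* was -0.04. *E2f3* was closest to *Rbl1* (r = 0.92) and *Rb1* (r = 0.86). *E2f6* had a negative r with 6 of the other 9 members. Among genes outside the family, those most like *E2f8* were *Mki67* (r = 0.98), *Cdc25b* (r = 0.98) and *Top2a* (r = 0.97), and those most like *E2f1* were *Sephs1*, *Cdc45* and *Eri2* (r of 0.95, 0.95 and 0.95). *E2f4* was most like *Snap23*, *Cdc42se2* and *Rrp12* (r of 0.98, 0.98 and 0.97), and *Rb1* was most like *Dpp4*, *D130043K22Rik* and *Ptbp3* (r of 0.99 each). The activator *E2f1* and the repressor *E2f4* had no gene in common among their 3 nearest, which their own r of -0.04 already fixed.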

How the data were processed

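Poly(A) RNA of mouse islets was sequenced from strand-specific (TruSeq) libraries. For each of 11 libraries the authors deposited estimated counts (expected counts) per gene without normalization, and the submitters' processing notes name STAR, RSEM, GRCm38 and mm10. Values were rounded to whole counts. Of 55536 gene identifiers, 55450 matched GENCODE M21 (GRCm38), the source of coordinates and of merged exon lengths for CPM per kilobase. Between 4449 and 5162 genes per library had values that were not whole, so reads shared between similar genes were divided.

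Genes were tested with edgeR 4.0.16 in R 4.3.3 (TMM, filterByExpr with a minimum count of 10 and a minimum total of 15, quasi-likelihood F-test), with Benjamini-Hochberg adjustment over all genes tested and a threshold of 0.05. Parity was compared within the 7 S-961 or 4 untreated libraries, and S-961 and the interaction in a fit of all 11. CPM values were normalized over all 11 libraries, and r used log2 CPM with a prior count of 2. DESeq2 1.42.0, RLE factors, no filter, other sample sets, a replicate block and each library left out were alternatives. Scaling by totals, with or without insulin genes, was added after seeing the data. The main edgeR fit of each comparison was checked on simulated counts, and the alternatives were not. The members and gene lists were chosen with earlier results of these data known. Named genes were all members, the 2 largest and the 1 smallest absolute log2 fold change per list for parity with S-961, and the 3 highest r for *E2f1*, *E2f8*, *E2f4* and *Rb1*. A gene that this rule picked is not reported here. *Mki67* and the other genes named for called counts were chosen after their values were seen. The coefficient of biological variation was 0.281 in the S-961 fit, 0.266 in the untreated fit and 0.293 over all libraries, and the total count per library was 22028484 to 32234140.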

Additional observations from a re-analysis of the deposited data

Results flagged for a closer look

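*E2f7* in multipara S-961 4 lay far from the other 3 libraries of its group. On the log2 CPM scale it stood at -0.37, and its gap to the next library was 0.839 of the range of the group. A gap of that size arises in about 1 in 20 groups by chance, and each member was looked at in the 1 group of 4 libraries. In the same library *Lrrc55* stood at 4.43 CPM, between the 0.32 to 1.96 CPM of the other 3 libraries of its group and the 5.34 to 7.54 CPM of the virgin S-961 libraries. The cause was not tested.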

How the results depend on the processing

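Alternatives were run for the members in the 4 comparisons and for *E2f1*, *E2f4* and *E2f7* in the interaction, and of 528 values 463 kept their direction and their side of the threshold, 24 passed it anew, 14 lost it and 27 changed sign. For parity with S-961, *E2f5* stood at -0.035 under the replicate block, and ran from -0.039 to 0.13 with each library left out, as *E2f6* did from -0.051 to 0.064. For parity untreated, total counts gave *E2f4* -0.021 and *E2f6* -0.016, and leaving out libraries gave -0.085 to 0.096 for *E2f4*, -0.041 to 0.24 for *E2f5*, -0.072 to 0.12 for *E2f6* and -0.11 to 0.27 for *Rb1*. For S-961 in virgin islets, *E2f2* stood at 0.17 under the block, at 0.43 with total counts and at 0.058 with totals without insulin genes, and *E2f6* at 0.39 (adjusted p = 0.0174, edgeR) and 0.024 in the last pair. Leaving out libraries gave -0.47 to 0.56 for *E2f2* and -0.42 to 0.96 for *E2f8*. For S-961 in multipara islets, *E2f2* stood at 0.23 under the block and at 0.28 with total counts, and *E2f6* at 0.47 with total counts and at 0.0037 with totals without insulin genes, and leaving out libraries gave -0.77 to 0.61 for *E2f2* and -0.21 to 0.018 for *E2f6*. In the interaction, 26 of 119 values of the 7 members not named there changed sign, and 0 were called.

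Counts of calls also changed. For parity with S-961, DESeq2 called 369 genes and 2 members, the replicate block 342 genes and 4 members, and leaving out libraries gave 0 to 525 genes and 0 to 4 members. For parity untreated, DESeq2 called 56 genes and no filter 3, and leaving out libraries gave 0 to 1738 genes and 0 to 3 members. For S-961 in virgin islets, leaving out libraries gave 3053 to 6121 genes and 0 to 3 members, and in multipara islets 3618 to 7451 genes and 2 to 5 members, while a fit of those 2 groups gave 4428 genes and total counts 8 members. With total counts the calls in virgin islets split into 6409 higher and 1272 lower, against 3390 and 3172 with TMM, and in multipara islets into 7787 and 1304, against 3272 and 3496. In the interaction, DESeq2 called 81 genes, no filter 4, the block 34, and leaving out libraries 0 to 45, with 0 members in each. Deviations of same-numbered libraries from their group means had correlations of -0.09 to 0.28. In groups of 2 libraries these deviations mirror each other, so the check cannot exclude a pairing, and the main fits used none. In the block, multipara S-961 4 had a number of its own and did not bear on parity. The causes were not tested, and with 2 untreated libraries per label and counts of 1 to 65 for *E2f8* there, depth and the number of libraries limit what the untreated values can show.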
